A study of Mus musculus with 6 samples.

Results

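Plasma carrier proteins bind hormones, vitamins, fatty acids, heme and hemoglobin in blood, and in the fetus the liver and the yolk sac make most of them. Alpha-fetoprotein, albumin and transthyretin are switched on when the first hepatoblasts form, and fall or rise with maturation in their own ways. Haptoglobin, hemopexin and fetuin-B are better known as proteins of the mature or inflamed liver. The genes described here are Alb, Afp, Ttr, Ahsg, Rbp4, Gc, Hpx, Hp, Ambp and Fetub, chosen by name, with every probe set annotated to them alone. Of these 10 genes, 9 had such probe sets, 16 in all, among 18193 named genes and 45037 probe sets. Gc, the vitamin D binding protein, is not analysed here.

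The arrays came from 3 samples labelled as hearts of Sp3 knockout fetuses and 3 labelled as hearts of wildtype fetuses, all at stage E12.5, and the replicates of each group are lettered a to c. Sp3 is a zinc finger factor that binds GC-rich promoter elements. Per the labels, each array held the total RNA of a single heart, and the kind of knockout allele and the strain are not given in the sources used here. Levels are log2 intensities, and each difference is knockout minus wildtype on that scale. Array medians ran from 22.5 to 26.7 intensity units, and the number of arrays limits every value below. In whole-tissue RNA, fewer cells of a type and less RNA per cell cannot be told apart.

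The Sp3 probe set was at 8.39, 8.34 and 8.61 in knockout a to c, against 9.87, 9.77 and 9.54 in wildtype a to c. Its difference of -1.27 passed in limma (adjusted p = 0.00254), and was not called without an intensity trend in the variance (adjusted p = 0.279).

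The carriers stood near the top of the intensity scale of arrays that are labelled heart. For 7 of the 9 genes the brightest probe set lay above the 90th percentile of all probe sets. Taken as lists, the early carriers Afp, Alb, Ttr, Ahsg and Rbp4 had a median at the 99.5th percentile, with none below the 93.3th. The later-maturing carriers Hpx, Hp and Fetub had a median at the 68.6th percentile and ranged from the 31.5th to the 93.7th. Ambp, placed in neither group, lay at the 99.0th. Percentiles also depend on the sequences of the probes, so they describe where a list lies and do not rank its genes.

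Markers of the labelled tissue did not share that position. By their brightest probe sets, all 18193 genes had a median at the 61.9th percentile, with 40.5% of them below the 50th, which is the mark to read the lists against. Of 11 heart muscle markers, 7 lay below the 50th percentile, with the list's median at the 36.9th, and the brightest were Actc1, cardiac actin, at the 86.9th and Tnni1, a troponin, at the 80.5th. Of 10 hepatoblast markers 3 lay below the 50th, the enzyme genes Tdo2 at the 43.4th, Cps1 at the 36.7th and Cyp3a16 at the 6.38th. The brightest were Dlk1, a surface protein of hepatoblasts, at the 98.9th and Krt18, a keratin, at the 92.7th. Red cell markers had a median at the 98.6th, and they do not tell blood formation in the fetal liver from blood in another tissue. The yolk sac makes many of the same carriers. Of its 9 markers 4 lay below the 50th percentile, among them the endocytic receptor genes Amn at the 34.8th and Cubn at the 42.2th. The yolk sac list had its median at the 64.0th, beside the 70.5th for the hepatoblast list. These medians of short lists do not tell liver from yolk sac. The brightest of the yolk sac list were Pla2g12b, a secreted phospholipase relative, at the 89.3th and Cited1, a transcriptional coregulator, at the 87.2th. The choroid plexus of the brain also makes transthyretin, and 5 of its 6 measured markers lay below the 50th, with Otx2 at the 1.64th. No array of heart, liver, yolk sac or brain from another source was analysed here for comparison. The markers thus go against the heart label, which may be wrong, and the tissue behind every level below is not settled by these data.

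**Figure D1:**
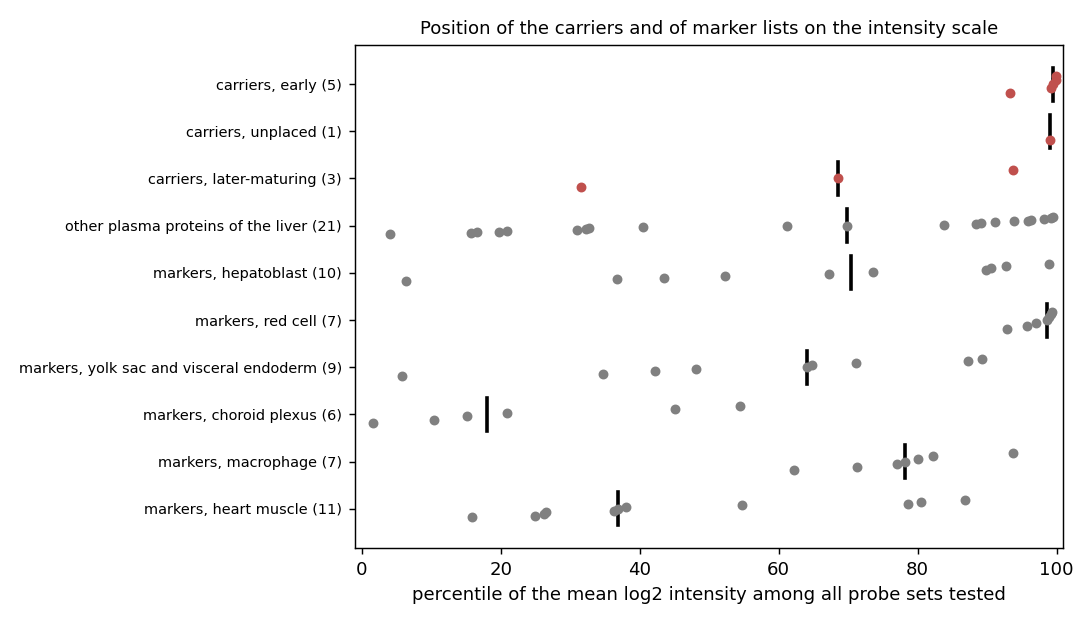
Each point is a gene, placed by the percentile of its mean log2 intensity over the 6 arrays among 45037 probe sets, and the black bar is the median of its list. Carriers are red, other lists grey, and the number of genes is in brackets. The early carriers lie between the 93.3th and 99.95th percentile, and the later-maturing ones between the 31.5th and 93.7th.

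None of the 16 probe sets passed the comparison of Sp3 knockout with wildtype. Limma with an intensity trend and robust estimation called 0 of 16, where 0.0311% of all probe sets were called, and without the trend it also called 0. The fit without the trend recovered 0% of bright probe sets changed by 0.5 or by 1 on the log2 scale in simulated data. There the spread was set by level alone. Under that setting, its count of 0 says little about changes of that size. With the trend, an unadjusted p under 0.05 was reached at 2 of 16 probe sets, those of Alb and Hpx, where 7.16% of all probe sets reached it. Without the trend 0 of 16 reached it, where 2699 of all 45037 probe sets did. By the brightest probe set, 6 of 9 carriers were lower in knockout and 3 higher, with a median difference of -0.15. Over all 18193 genes 52.5% were lower, with a median of -0.02. Without wildtype a the carriers' median difference was -0.01.

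**Figure D2:**
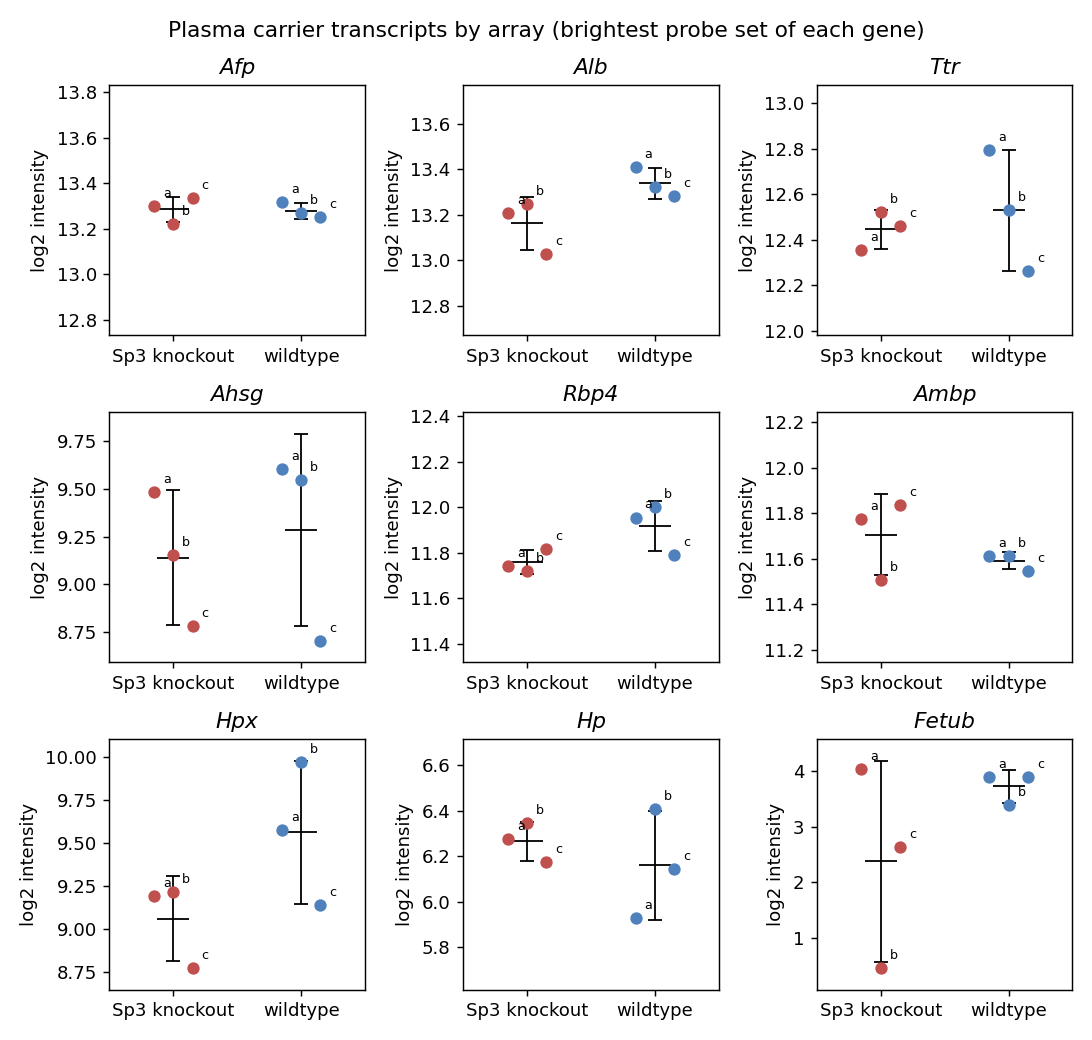
Log2 intensity of the brightest probe set of each measured carrier in the 3 knockout arrays (red) and 3 wildtype arrays (blue), lettered by replicate, with the group mean and SD. The vertical axes differ in position and length between panels. The groups are separate for Alb alone, where all 3 knockout arrays lie below all 3 wildtype arrays.

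Albumin and alpha-fetoprotein are paralogues that stand next to each other on chromosome 5, Alb first and then Afp, followed by Afm, a vitamin E binding relative. Alb carries fatty acids and sets the osmotic pressure of plasma, and Afp is its fetal counterpart. The 250 bases before their RefSeq start sites (GRCm38.p6, plus strand) are shown because Sp3 binds GC boxes and both genes are textbook targets of the hepatocyte factor HNF1. Capitals mark matches on either strand to any of 4 motifs. These are the GC box, spelled GGGCGG, and the related GT box, which Sp factors also bind, spelled GGGTGG. The letters GTTAAT are a part of the HNF1 element, and the TATA box was searched as TATAAA.

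Alb, chr5:90460620-90460869: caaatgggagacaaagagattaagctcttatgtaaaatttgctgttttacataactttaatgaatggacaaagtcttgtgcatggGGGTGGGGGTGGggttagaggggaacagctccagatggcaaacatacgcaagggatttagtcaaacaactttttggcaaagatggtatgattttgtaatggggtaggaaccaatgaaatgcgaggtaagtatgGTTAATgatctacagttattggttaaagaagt
Afp, chr5:90490464-90490713: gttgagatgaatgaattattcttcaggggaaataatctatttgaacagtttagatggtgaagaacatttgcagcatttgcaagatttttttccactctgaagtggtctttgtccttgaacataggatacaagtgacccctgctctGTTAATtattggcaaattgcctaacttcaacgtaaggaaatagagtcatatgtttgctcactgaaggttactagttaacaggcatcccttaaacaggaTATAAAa

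Neither window held GGGCGG, which 32.74% of 32851 RefSeq windows of that length hold. The Alb window held GGGTGG at 2 places that adjoin without overlap (in 28.08% of all windows), and the Afp window at none. Both held GTTAAT at 1 place, a string found in 6.43% of all windows, and the Afp window held TATAAA (12.37% of all). A match of letters is a description and not a site.

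Alb was at 13.21, 13.25 and 13.03 in knockout a to c, against 13.41, 13.32 and 13.28 in wildtype a to c. All knockout values lay below all wildtype values, by 0.03 at the nearest pair, and knockout c was the lowest of the 6. The groups averaged 13.16 ± 0.12 in knockout arrays and 13.34 ± 0.07 in wildtype arrays (SD, n = 3 each), a difference of -0.18 with a 95% interval of -0.32 to -0.03, or 0.885 times the wildtype intensity. The limma adjusted p was 0.656, and without the trend the unadjusted limma p was 0.298. Without knockout c the difference was -0.11. By the brightest probe set, Alb was the only carrier of the 9 whose groups did not overlap, where 9.04% of all genes did not overlap with knockout lower and 6.02% with knockout higher.

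Afp was measured by 5 probe sets. The brightest was at 13.30, 13.22 and 13.33 in knockout a to c, against 13.32, 13.27 and 13.25 in wildtype a to c. The groups overlapped throughout, and all 6 arrays lay within 0.11. The difference was 0.01, with a 95% interval of -0.11 to 0.12 and a limma adjusted p of 0.988. Another pair of bright Afp probe sets gave 0.00 (-0.12 to 0.12) and -0.01 (-0.13 to 0.11). The remaining probe sets, annotated to the same sequence as each other, were dimmer. That at the 69.6th percentile differed by 0.12 (-0.34 to 0.57), and that at the 9.09th by 0.32 (-2.34 to 2.97), which sets no useful bound.

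The gap between log2 Afp and log2 Alb within an array was 0.09, -0.02 and 0.31 in knockout a to c, against -0.09, -0.05 and -0.03 in wildtype a to c. It was larger in all 3 knockout arrays, though knockout b and wildtype c differed by less than 0.01. The mean gap differed by 0.18, with an exact two-sided permutation p of 0.1, the smallest that 3 against 3 arrays allow. Without knockout c it differed by 0.09, and after quantile normalization the exact permutation p was 0.2. With the mean of each gene's probe sets it differed by 0.26, with an exact permutation p of 0.5. That mean includes the Afp probe set at the 9.09th percentile, which varied widely between arrays. The pair was chosen with the levels of both genes already known. Alb was no lower than the 99.78th percentile on any array and Afp no lower than the 99.90th, and whether their probes were near saturation was not tested. Afm, the third of this cluster, was at 7.99, 7.70 and 8.35 in knockout a to c, against 7.69, 7.71 and 7.18 in wildtype a to c. Knockout b lay between wildtype a and b, and the difference of 0.48 (0.06 to 0.90) had a limma adjusted p of 0.665.

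Transthyretin and the retinol-binding protein Rbp4 travel together: Ttr carries thyroxine and holds the Rbp4-retinol complex in the circulation. The brightest Ttr probe set was at 12.35, 12.52 and 12.46 in knockout a to c, against 12.80, 12.53 and 12.26 in wildtype a to c. The knockout values fell inside the wildtype range, whose ends are wildtype a and c. The difference was -0.08 (95% interval -0.34 to 0.17, limma adjusted p = 0.884), and it was 0.05 without wildtype a. All 4 Ttr probe sets had wildtype a as their highest array, and their differences lay between -0.13 and -0.07.

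Rbp4 was at 11.74, 11.72 and 11.82 in knockout a to c, against 11.95, 12.00 and 11.79 in wildtype a to c. Wildtype c lay among the knockout arrays and the other wildtype arrays above them. The groups averaged 11.76 ± 0.05 in knockout arrays and 11.92 ± 0.11 in wildtype arrays (SD, n = 3 each), a difference of -0.16 (95% interval -0.32 to 0.004, limma adjusted p = 0.705). RefSeq gives Rbp4 more than 1 start. The window before the downstream start (GRCm38.p6, minus strand) is shown as the most GC-rich of the carriers' windows, at 70.8% G and C against a median of 52.4% over all windows, with the same motifs in capitals.

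Rbp4, chr19:38124812-38125061: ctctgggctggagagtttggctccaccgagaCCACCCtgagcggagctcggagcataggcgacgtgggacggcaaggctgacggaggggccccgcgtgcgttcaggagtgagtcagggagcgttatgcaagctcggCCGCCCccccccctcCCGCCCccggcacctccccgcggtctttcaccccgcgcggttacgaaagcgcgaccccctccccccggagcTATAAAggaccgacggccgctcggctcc

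It held the GC box at 2 places, the GT box at 1 and TATAAA at 1, all without overlap. Of the carriers' 10 windows, which cover 8 genes, 3 held a GC box, this one and both of Fetub. The window before the upstream Rbp4 start held none of the 4 motifs.

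The fetuins Ahsg and Fetub are neighbours on chromosome 16, beside Hrg and the kininogens. Ahsg, fetuin-A, keeps calcium phosphate in solution and is abundant in fetal serum, and Fetub protects the egg coat from early hardening. Ahsg was at 9.48, 9.15 and 8.78 in knockout a to c, against 9.60, 9.55 and 8.71 in wildtype a to c. The groups overlapped over nearly their whole range, and the arrays lettered c were the lowest of each group. The difference of -0.15 had a 95% interval of -0.78 to 0.49 (limma adjusted p = 0.923), so a change of that size in either direction was not resolved. It was 0.03 without knockout c and 0.01 without wildtype a.

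Fetub lay low on the scale, at 4.05, 0.46 and 2.64 in knockout a to c, against 3.91, 3.39 and 3.90 in wildtype a to c. Knockout a was the highest of the 6 arrays and knockout b the lowest. The difference of -1.35 had an interval of -3.35 to 0.65 (limma adjusted p = 0.766), and at this level its size is not exact: with 16 intensity units added before log2 it was -0.34. It was -0.39 without knockout b and -2.19 without knockout a. Of the neighbours, Kng1, the kininogen from which bradykinin is cut, was at 8.54, 8.69 and 8.69 in knockout a to c, against 9.30, 9.04 and 8.59 in wildtype a to c. Wildtype c fell among the knockout arrays, and the difference of -0.34 had a limma adjusted p of 0.705.

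Hemoglobin and heme released from red cells are bound by haptoglobin and hemopexin. Hpx, hemopexin, had the largest difference among the carriers outside the dim Fetub. It was at 9.19, 9.21 and 8.77 in knockout a to c, against 9.58, 9.97 and 9.14 in wildtype a to c. Wildtype c lay just below knockout a and b, and the other wildtype arrays above all 3 knockout arrays. The groups averaged 9.06 ± 0.25 in knockout arrays and 9.56 ± 0.41 in wildtype arrays (SD, n = 3 each). The difference of -0.50 (95% interval -0.94 to -0.06), or 0.707 times the wildtype intensity, had a limma adjusted p of 0.665. It was -0.30 without wildtype b. Without the trend the unadjusted limma p of Hpx was 0.127. The Hpx window (GRCm38.p6, minus strand) is shown because it held 2 GT boxes within 63 bases of the start and no GC box.

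Hpx, chr7:105600117-105600366: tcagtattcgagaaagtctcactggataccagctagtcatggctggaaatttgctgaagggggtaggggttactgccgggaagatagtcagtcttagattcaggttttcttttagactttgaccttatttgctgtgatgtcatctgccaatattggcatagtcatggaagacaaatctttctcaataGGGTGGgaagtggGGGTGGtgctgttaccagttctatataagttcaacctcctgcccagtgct

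Hp, haptoglobin, was at 6.28, 6.35 and 6.18 in knockout a to c, against 5.93, 6.41 and 6.15 in wildtype a to c. The knockout values fell inside the wildtype range, and the difference of 0.11 had an interval of -0.34 to 0.55 (limma adjusted p = 0.925). Among the genes that take up or degrade their cargo, Hmox1, heme oxygenase, was at 7.40, 7.08 and 7.18 in knockout a to c, against 7.39, 8.52 and 7.60 in wildtype a to c. The wildtype mean rested on wildtype b, which was also the highest array for Hpx, and the difference of -0.62 had a limma adjusted p of 0.672. Cd163, the macrophage receptor for haptoglobin with hemoglobin, was at 3.66, 3.04 and 2.63 in knockout a to c, against -0.34, -0.77 and 1.80 in wildtype a to c. The groups did not overlap, but the wildtype level lies among the dimmest probe sets, so no size is given, and the limma adjusted p was 0.634.

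As list means, red cell and macrophage markers had the same lowest and the same highest array as Hpx. The mean deviation of the 7 measured red cell markers from their own means was -0.02, 0.22 and -0.84 in knockout a to c, against 0.23, 0.47 and -0.05 in wildtype a to c. Knockout c was lowest and wildtype b highest, as for Hpx. All 7 were lower in knockout on average and none was called. For the 7 macrophage markers the deviation was -0.14, 0.01 and -0.77 in knockout, against 0.22, 0.41 and 0.27 in wildtype. On these markers wildtype c lay above every knockout array, unlike for Hpx. All 7 were lower, where 52.5% of all genes were, 5 of them without overlap, where 9.04% of all genes were lower without overlap, and none was called. Their part in the difference of Hpx was not tested.

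Ambp encodes a precursor that is cut into alpha-1-microglobulin, a heme and radical scavenger, and bikunin, the protease-inhibiting chain of the inter-alpha-trypsin inhibitors. Ambp was at 11.78, 11.51 and 11.84 in knockout a to c, against 11.61, 11.61 and 11.55 in wildtype a to c. Knockout b was the lowest and the other knockout arrays the highest of the 6. The difference of 0.12 had an interval of -0.08 to 0.31 (limma adjusted p = 0.788), and it was 0.22 without knockout b and 0.05 without knockout c. Of the heavy chains that bikunin joins, chosen for this role after their values were seen, Itih3 differed by 0.33, Itih1 by 0.02, Itih2 by 0.00 and Itih4 by -0.07, and none passed.

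**Figure D3:**
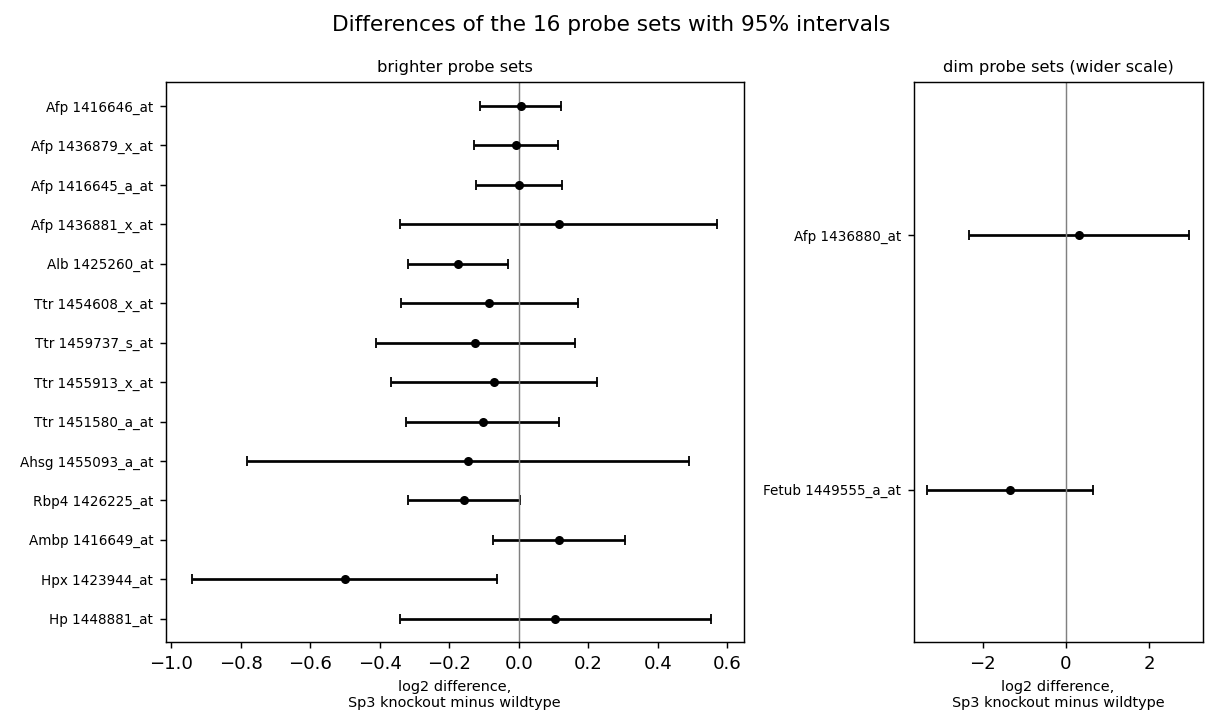
Log2 difference, Sp3 knockout minus wildtype, of each of the 16 probe sets with its 95% interval from limma, ordered by gene and labelled by probe set. The dim Afp and Fetub probe sets are on a wider scale at the right. In the fit with an intensity trend, the intervals of Alb and Hpx lie below 0 before adjustment over 45037 probe sets. That of the brightest Afp probe set spans -0.11 to 0.12.

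The carriers differed in how much single arrays varied. Within groups the residual SD was 0.05 for the brightest Afp probe set, 0.10 for Alb, 0.09 for Rbp4 and 0.13 for Ambp, against a median of 0.13 over the brightest of 10 equal classes of probe sets. It was 0.20 for the brightest Ttr probe set, 0.34 for Hpx and 0.43 for Ahsg, which belong to the same class of brightness. Over all 6 arrays Afp spanned 0.11, Alb 0.38, Ahsg 0.90 and Hpx 1.19. Afp and Alb lay near the top of the scale, and whether saturation narrowed their spread was not tested. Wildtype a was the highest array for Alb, Ttr and Ahsg, wildtype b for Rbp4, Hp and Hpx, and knockout c for Afp and Ambp.

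**Figure D4:**
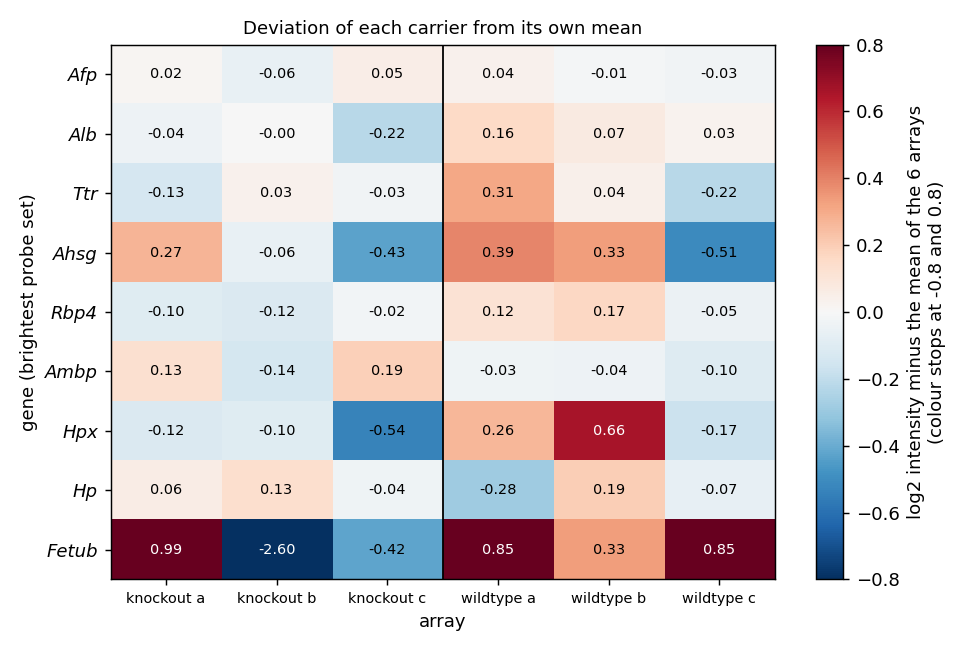
Each cell is the log2 intensity of a carrier (rows, brightest probe set) on an array (columns) minus the mean of that carrier over the 6 arrays, with knockout arrays left of the line. Colour stops at -0.8 and 0.8. Hpx ranges from -0.54 in knockout c to 0.66 in wildtype b, Ahsg from -0.51 in wildtype c to 0.39 in wildtype a, and no Afp value lies beyond 0.06 from 0.

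The early carriers were set against the later-maturing ones within each array, as the difference of the median log2 levels of the lists. On every array these medians were the levels of Ttr and Hp, so the value is Ttr minus Hp. It does not reflect the other genes of either list. The difference of medians was 6.08, 6.18 and 6.28 in knockout a to c, against 6.87, 6.12 and 6.12 in wildtype a to c. Wildtype a stood apart, with the highest Ttr and the lowest Hp of the 6 arrays, and the other 5 arrays lay within 0.21. The groups differed by -0.19, less than the replicate SD of 0.31, and by 0.06 without wildtype a. As a score over chosen genes it was given no test. Of the early carriers 4 of 5 were lower in knockout and of the later-maturing ones 2 of 3.

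Other plasma proteins of the liver showed no shared direction. Of 28 listed, 21 had a probe set of their own, and 12 of these were higher in knockout and 9 lower, with a median difference of 0.17 beside -0.02 over all genes. None was called, where 0.0495% of all genes were called, and 1, Afm, had an unadjusted p under 0.05, where 8.71% of all genes had. The brightest were Serpina6, the corticosteroid carrier, at 12.26, 12.23 and 12.00 in knockout a to c, against 12.66, 12.51 and 12.06 in wildtype a to c, and Serpina1b, an alpha-1-antitrypsin. Wildtype c overlapped the knockout arrays for Serpina6, and the difference of -0.25 had a limma adjusted p of 0.750. Serpina1b, which differed by -0.15, belongs to a family of near-identical copies that probes may not separate.

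Genes for receptors of the carriers and for their uptake had a list median at the 50.3th percentile, beside the 61.9th over all genes. Of 12 genes 4 were higher and 8 lower in knockout, where 52.5% of all genes were lower. None was called, where 0.0495% of all genes were. Without overlap, 2 were higher (Cd163 and Insr), where 6.02% of all genes were. Insr, the insulin receptor, which Ahsg is known to inhibit, was at 7.77, 7.30 and 7.76 in knockout a to c, against 7.21, 7.30 and 7.27 in wildtype a to c. The groups did not overlap, by less than 0.01 at knockout b and wildtype b, and the difference of 0.36 had a limma adjusted p of 0.699. Dab2, an adaptor of the endocytic receptors, differed by -0.30 (limma adjusted p = 0.742). Stra6, the cell surface receptor of Rbp4, was dim, at the 18.3th percentile, and Fcgrt, the receptor that rescues albumin from degradation, at the 79.4th differed by 0.11, both named for their role after their values were seen.

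Of the transcription factors known to act on Afp and Alb, 13 of 15 were measured, 10 higher and 3 lower in knockout, with a median difference of 0.26, and none was called. Over all genes 52.5% were lower, with a median of -0.02, and 0.0495% were called. Zbtb20 and Zhx2, repressors of Afp in the mouse liver after birth, differed by 0.65 and 0.62, with limma adjusted p of 0.721 and 0.732. Zbtb20 was at 5.71, 5.16 and 5.85 in knockout a to c, against 5.08, 4.30 and 5.38 in wildtype a to c, with knockout b below wildtype c. Among the activators, Cebpa, which drives Alb, was at 7.88, 7.17 and 7.39 in knockout a to c, against 7.89, 7.99 and 7.69 in wildtype a to c. Knockout a lay within the wildtype range and the difference of -0.37 had a limma adjusted p of 0.714. Hnf4a, a central hepatocyte regulator, differed by -0.18 (limma adjusted p = 0.776).

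Hepatoblast markers other than the carriers were lower in knockout for 8 of 10, where 52.5% of all genes were lower. Their median difference was -0.10, and none was called. Krt8, a keratin of hepatoblasts and other simple epithelia, had the smallest p of all listed genes. It was at 8.32, 8.10 and 8.55 in knockout a to c, against 9.06, 9.17 and 9.07 in wildtype a to c. The groups were apart by 0.52, and the difference of -0.78 had a limma adjusted p of 0.120. Its keratin partner Krt18 differed by -0.06 and Dlk1 by 0.08. Heart muscle markers were higher in knockout for 8 of 11, with a median of 0.88 beside -0.02 over all genes. Of the 11, 7 lay below the 50th percentile, where the size of a log2 difference is not exact. The brightest, Actc1 and Tnni1, differed by 1.09 and 0.46. The mean deviation of the list was 0.48, 0.14 and 0.41 in knockout a to c, against -0.17, -0.67 and -0.19 in wildtype a to c. None of its genes was called. By that mean, to which dim genes contribute, all 3 knockout arrays lay above all 3 wildtype arrays. By the list's median level the groups overlapped, at 3.81, 3.67 and 3.84 in knockout a to c, against 2.91, 3.40 and 3.85 in wildtype a to c. As scores over chosen genes these were given no test. The part of either list in the difference of Alb was not tested.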

How the data were processed

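The deposited table holds 1 intensity per probe set and array on a linear scale, between 0.0562 and 12897. Per the submitters' processing notes, GCOS and RMA were used, with no role or version, so how the authors scaled the deposited intensities is not known. Log2 was taken and no further normalization applied. Control probe sets (64) were left out. Of the probe sets, 34945 were annotated to 1 gene, 932 to several and 9160 to none, and the brightest probe set on average stood for a gene. No array pair shared more than 1 identical value. Arrays were taken as replicates per the labels of single hearts.

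Tests used R 4.3.3 and limma 3.58.1 (lmFit, eBayes with an intensity trend and robust estimation, 45037 probe sets, two-sided, Benjamini-Hochberg adjusted p under 0.05). The trend was chosen because residual SDs fell with level, to a median of 0.125 for the brightest decile class against 1.27 for the dimmest. The members, lists and tests were chosen with earlier results of these data known. Genes named were the members, Sp3 and, per list, those of smallest p and highest level, and others for their role after their values were seen. On data simulated for 45037 probe sets, with bright ones changed, the fit recovered 67.2% at a log2 change of 0.5 and 100% at 1 and at 2, with 18 unchanged probe sets called. Without the trend it recovered 0%, 0% and 84.8% at these sizes, with 0 unchanged called. The simulated spread was set by level alone, which favours the fit with the trend. Recovery for genes that vary more than their class, such as Hpx and Ahsg, was not simulated. Alternatives were no trend, quantile normalization, median centring, 16 units added, dim probe sets left out, array weights, the letter as a block, each array left out and averaging the probe sets of each gene. Promoter windows are from RefSeq (GRCm38.p6), the 250 bases before each start, and 8 of 10 genes matched.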

Additional observations from a re-analysis of the deposited data

How the results depend on the processing

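No carrier was called under any of the alternatives. The lowest adjusted p was 0.0587, for Hpx with the letters as a replicate block. Alb, Hpx, Rbp4, Fetub and Ambp kept their direction in all that were run for them. Alb ran from -0.25 to -0.11, Hpx from -0.71 to -0.30 and Rbp4 from -0.23 to -0.09. The difference of Afp was -0.0705 with median centring and -0.00434 with array weights, and -0.0185 to 0.0368 with an array left out. With an array left out, Ambp ran from 0.05 to 0.22, Fetub from -2.19 to -0.39, Ahsg from -0.435 to 0.0339, Ttr from -0.217 to 0.0485, Hp from -0.0105 to 0.229, the carriers' median from -0.217 to -0.0105, the gap between Afp and Alb from 0.09 to 0.26, and early minus later-maturing from -0.31 to 0.06. The cause was not tested. Over all probe sets, 7 were called higher and 7 lower. Without the trend 0 and 0 were called, with 2699 at an unadjusted p under 0.05. Array weights gave 18 lower, and an array left out gave 3 to 12 higher and 0 to 12 lower. Dropping knockout a left 3 and 0, dropping knockout c left 3 and 4, dropping wildtype a left 6 and 1, dropping wildtype b left 7 and 4, and dropping wildtype c left 12 and 12. The replicate block gave 52 higher and 206 lower. The letters share no stated source, and deviations of same-lettered arrays correlated at -0.01, 0.05 and 0.08, so they were not taken as pairs. Knockout b and c each correlated best with the wildtype array of their own letter, and knockout a with wildtype b. Whether the letters mark pairs is not settled by these values. Small differences at dim probe sets cannot be resolved with 3 arrays a group.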

Other observations

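Haptoglobin is an acute-phase protein, whose gene responds to interleukin 6 through Stat3. Of 12 acute-phase genes 8 were higher and 4 lower in knockout, where 52.5% of all genes were lower. None was called, where 0.0495% of all genes were. Without overlap, 3 were higher (Cebpd, Il6ra and Stat3) and 1 lower (Lcn2), where 6.02% and 9.04% of all genes were. Lcn2, lipocalin-2, was at 6.63, 6.38 and 5.82 in knockout a to c, against 6.79, 7.71 and 6.87 in wildtype a to c. The groups did not overlap, and the difference of -0.85 had a limma adjusted p of 0.596. Stat3 was at 9.29, 9.35 and 9.38 in knockout, against 9.23, 9.22 and 9.26 in wildtype, a difference of 0.10 (limma adjusted p = 0.834) without overlap. Cebpd, a factor that binds acute-phase promoters, differed by 0.45 and Crp, C-reactive protein, by -0.63, neither passing. Saa1 and Saa2, acute-phase apolipoproteins of the mature liver, lay at the 32.8th and 24.1th percentiles, values seen before they were named.

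Of the 9 yolk sac markers 3 were higher and 6 lower in knockout, where 52.5% of all genes were lower. None was called, where 0.0495% of all genes were. Pla2g12b, a secreted phospholipase relative, was at 8.28, 8.28 and 8.42 in knockout a to c, against 8.84, 8.74 and 8.44 in wildtype a to c. The difference was -0.34 (limma adjusted p = 0.661), with knockout c and wildtype c 0.02 apart.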
